A study of Homo sapiens with 6 samples.

Results

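The genes described were ISG15, IFITM1, IFITM2, IFITM3, IRF1, IRF9 and STAT2, 7 of the 22984 genes with a sense-strand value in the deposited tables. They were chosen by name from earlier results on the sense counts and RPKM of these same libraries, so their values are given as a description and no test was run on them. Nascent RNA was measured by Bru-seq, in which newly made RNA is labelled with bromouridine, captured and sequenced, in HCT116 cells, an established human colorectal carcinoma line. Labelling lasted 30 min in all 6 cultures, and each culture gave 1 library. The controls were 2 cultures given the solvent DMSO at 0.01% for 4 h, named DMSO culture 1 and DMSO culture 2. The other 4 cultures received siRNA against GSTO1 (siGSTO1) at 10 nM for 24 h by its label, C1-27, an inhibitor of the glutathione transferase GSTO1, at 1 µM for 4 h or for 24 h, or the inactive analogue C1-14 at 10 µM for 4 h. The comparisons ask how transcription of these genes differed from DMSO after knockdown or inhibition of GSTO1. No non-targeting siRNA and no 24 h DMSO culture was analysed here. Treatment time thus cannot be told apart from the treatment in both 24 h comparisons, and with siGSTO1 neither can the transfection itself.

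Sense counts came to between 18112861 and 36841146 per library, with DMSO culture 1 the shallowest. The DMSO cultures differed from each other, with 1275 of 7825 genes at least 1.4-fold lower and 222 at least 1.4-fold higher in culture 2. Nascent GSTO1 RNA, at 2.70 RPKM with siGSTO1 and 3.51 and 3.72 RPKM in DMSO cultures 1 and 2, is not a strict check of the siRNA, which acts on mature RNA. RPKM is reads per kilobase of gene, scaled to library depth. Of the 8 epithelial line markers examined, KRT8, KRT18, KRT19 and EPCAM averaged above 0.5 RPKM and CDX1 had 0 counts. None of the 8 blood, stromal and endothelial markers averaged above 0.5 RPKM, and CD3E was at 0. They were not all silent. PECAM1 reached 39 counts (0.3745 RPKM) in DMSO culture 1 and COL1A1 48.7 counts (0.313 RPKM) with siGSTO1. VWF had 48 counts (0.00669 RPKM) in DMSO culture 2. Summed over the 8 markers, the epithelial level was 27.3 and 17.6 RPKM in DMSO, 18.8 with siGSTO1, 16.5 and 14.5 with C1-27 at 4 h and 24 h and 32.8 with C1-14, and the blood, stromal and endothelial sum lay between 0.266 and 0.536 RPKM.

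Cells that sense viral nucleic acid secrete interferons, which bind receptors on the same and on neighbouring cells and activate the kinases JAK1 and TYK2. The kinases phosphorylate STAT2, which joins IRF9 in the factor that binds interferon-stimulated response elements in promoters. Gamma interferon acts through gamma-activated sites, and IRF1 is one of its early targets. ISG15 encodes a ubiquitin-like protein that is joined to other proteins, and the IFITM proteins sit in cell membranes and hinder the entry of enveloped viruses.

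The promoters are shown for the letter matches to interferon-responsive elements that they hold. RefSeq promoters of build GRCh38.p14, from 250 bases before to 50 bases after the start site, were given for 6 of the 7 genes and not for IFITM2. They were searched on both strands for GAAANNGAAA, the core of the interferon-stimulated response element, and for TTCNNNGAA, the gamma-activated site. The first is found in 3.57% and the second in 7.66% of 35116 promoters of this length. ISG15, IFITM1 and IFITM3 each held 2 matches to the response element, which overlapped each other in ISG15. Capitals mark those matches in the following stretches, given 5′ to 3′ on the strand of the gene, from chr1:1013376-1013407 (plus strand), chr11:313992-314051 (plus strand) and chr11:320878-320920 (minus strand).
ISG15: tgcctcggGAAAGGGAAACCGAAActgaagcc
IFITM1: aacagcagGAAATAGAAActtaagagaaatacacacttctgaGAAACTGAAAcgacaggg
IFITM3: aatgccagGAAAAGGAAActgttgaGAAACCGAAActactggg

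IRF1 and IRF9 held no match to the response element and 1 match each to the gamma-activated site, marked by capitals, in chr5:132490881-132490905 (minus strand) and chr14:24161194-24161218 (plus strand) of GRCh38.p14.
IRF1: agcctgatTTCCCCGAAatgacggc
IRF9: cacgtgatTTCTGGGAAaaggccct

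The matches of ISG15 began 113 and 107 bases before the start site, those of IFITM3 began 52 and 35 bases before it, and those of IFITM1 began 40 and 6 bases before it, the last reaching into the transcribed part. IFITM1 also held a match to the gamma-activated site, beginning 12 bases before its start and overlapping the second response element. The match of IRF1 began 124 bases and that of IRF9 began 63 bases before the start. The STAT2 window held neither motif. These are letter matches in a reference sequence, and the libraries hold no measure of factor binding.

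In DMSO the genes were transcribed at low levels, and IFITM1 had at most 3 counts. IFITM3 led with 1.64 ± 0.749 RPKM (SD, n = 2), followed by IFITM2 at 0.638 ± 0.397 RPKM and IRF1 at 0.628 ± 0.0708 RPKM. STAT2 at 0.339 ± 0.0172 RPKM, ISG15 at 0.337 ± 0.138 RPKM and IRF9 at 0.232 ± 0.113 RPKM formed a lower group. The spread between the DMSO cultures was wide for the short genes and for IRF9, and narrow for IRF1 and STAT2. Culture 1 was 2.57-fold above culture 2 for IFITM2, 2.05-fold for IRF9 and 1.95-fold for IFITM3, whereas ISG15 was 1.82-fold higher in culture 2. STAT2 differed by 1.07-fold and IRF1 by 1.17-fold. Of the 7825 genes compared, 16.3% were at least 1.4-fold lower in culture 2. The share of genes with gaps as wide as those of IFITM2, IFITM3 and IRF9 was not counted.

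**Figure D1:**
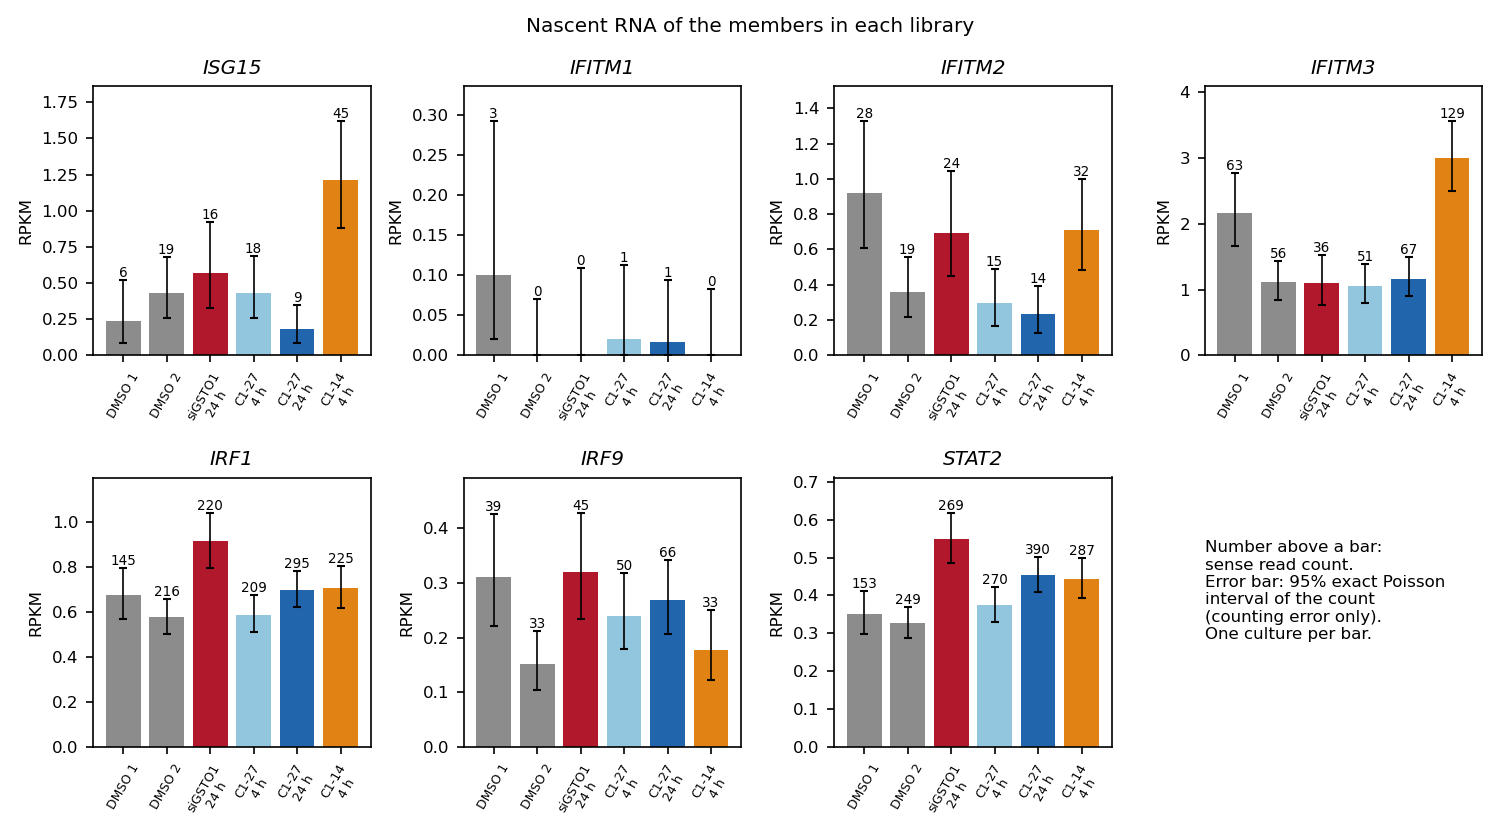
Each panel plots the RPKM (linear axis from 0) of 1 gene in the 6 libraries, with the sense count above each bar and error bars of the 95% exact Poisson interval of that count, which cover counting error only. ISG15 and IFITM3 are highest with C1-14, IRF1 and STAT2 are highest with siGSTO1, and IFITM1 has between 0 and 3 counts.

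ISG15 spans bases 948847 to 949919 of chromosome 1, plus strand, in hg19, the build named in the submitters' processing notes. It had 6 counts (0.239 RPKM) in DMSO culture 1 and 19 counts (0.434 RPKM) in DMSO culture 2. It had 16 counts (0.568 RPKM) with siGSTO1, 18 counts (0.434 RPKM) with C1-27 at 4 h and 9 counts (0.182 RPKM) with C1-27 at 24 h. With C1-14 it had 45 counts (1.21 RPKM), above all other libraries. The C1-14 level was 3.59-fold the DMSO mean, 5.06-fold that of culture 1 and 2.79-fold that of culture 2. The ratio of its count to the pooled DMSO counts, scaled by depth, was 3.33, with an exact 95% interval (Clopper-Pearson) from 2.00 to 5.67. Such intervals cover counting error only, not the spread between cultures. In the order of the levels, C1-14 exceeded the next library, siGSTO1, 2.13-fold (interval 1.18 to 4.04), and no other neighbouring pair was set apart by counting error. siGSTO1 stood 2.38-fold above culture 1 and 1.31-fold above culture 2. C1-27 at 24 h stood at 0.762 of culture 1 and 0.420 of culture 2, and at 0.420 of C1-27 at 4 h (interval 0.166 to 0.985).

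IFITM3, on chromosome 11 from 319673 to 320914 on the minus strand, restricts viruses that enter through endosomes. It had 63 counts (2.17 RPKM) in DMSO culture 1 and 56.2 counts (1.11 RPKM) in culture 2. The values were 36 counts (1.10 RPKM) with siGSTO1, 51 counts (1.06 RPKM) with C1-27 at 4 h, 66.7 counts (1.17 RPKM) with C1-27 at 24 h and 129 counts (3.00 RPKM) with C1-14. Thus 4 libraries lay close together near DMSO culture 2, and culture 1 and C1-14 stood above them. C1-14 was 1.83-fold the DMSO mean, 2.70-fold culture 2 and 1.38-fold culture 1 (interval 1.01 to 1.90), just below 1.4-fold. After rescaling by TMM or DESeq2 size factors the ratio to culture 1 was 1.43 and 1.45, past that threshold. The count ratio to pooled DMSO was 2.01 (interval 1.55 to 2.597). siGSTO1, C1-27 at 4 h and C1-27 at 24 h stood at 0.673, 0.648 and 0.711 of the DMSO mean, but at 0.995, 0.956 and 1.05 of culture 2, so these differences rested on culture 1.

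IFITM2 (chromosome 11, 308107 to 309410, plus strand) encodes a close relative of IFITM3. It had 28 counts (0.918 RPKM) in DMSO culture 1 and 19.0 counts (0.357 RPKM) in culture 2. siGSTO1 gave 23.8 counts (0.694 RPKM) and C1-14 gave 32 counts (0.708 RPKM), both between the DMSO cultures. C1-27 gave 15 counts (0.297 RPKM) at 4 h and 14.2 counts (0.237 RPKM) at 24 h, both below the DMSO cultures. At 24 h the level was 0.372 of the DMSO mean, 0.258 of culture 1 and 0.665 of culture 2, with a pooled count ratio of 0.415 (interval 0.211 to 0.768). The 2 times of C1-27 differed by a ratio of 0.798 (interval 0.351 to 1.74), which counting error covers. The gap between culture 2 and C1-27 at 4 h was also within counting error (ratio 1.20, interval 0.578 to 2.54).

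IFITM1 (chromosome 11, 313991 to 315272, plus strand), which lies between IFITM2 and IFITM3, encodes a member found mainly at the cell surface. It had 3 counts in DMSO culture 1, 1 count in each C1-27 library and 0 counts in DMSO culture 2, siGSTO1 and C1-14. A count of 0, taken as up to 3 counts, allows up to 0.0574 RPKM in DMSO culture 2, 0.0891 RPKM with siGSTO1 and 0.0675 RPKM with C1-14. All libraries were at or under that limit of 3 counts, so no fold is given. The IFITM genes are related in sequence, so the aligner may have assigned reads of 1 to another, which makes the value of each uncertain.

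The genes for the transcription factors are longer than ISG15 and the IFITM genes, and IRF1 and STAT2 also had more counts and a narrower spread in DMSO. IRF1, on chromosome 5 from 131817301 to 131826465 on the minus strand, had 145 counts (0.678 RPKM) and 216 counts (0.578 RPKM) in DMSO cultures 1 and 2. It had 220 counts (0.915 RPKM) with siGSTO1, 209 counts (0.590 RPKM) and 295 counts (0.700 RPKM) with C1-27 at 4 h and 24 h, and 225 counts (0.708 RPKM) with C1-14. siGSTO1 was the highest library, at 1.46-fold the DMSO mean, 1.35-fold culture 1 and 1.58-fold culture 2 (pooled count ratio 1.49, interval 1.25 to 1.77). It exceeded the next, C1-14, 1.29-fold (interval 1.07 to 1.56), and the other 5 libraries followed one another within counting error. After rescaling by TMM or DESeq2 size factors, the siGSTO1 level of IRF1 was 1.35-fold and 1.32-fold the DMSO mean, below 1.4-fold.

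STAT2, on chromosome 12 from 56735382 to 56754037 on the minus strand, had 153 counts (0.352 RPKM) and 249 counts (0.327 RPKM) in DMSO cultures 1 and 2. It had 269 counts (0.549 RPKM) with siGSTO1, 270.5 counts (0.375 RPKM) and 390 counts (0.454 RPKM) with C1-27 at 4 h and 24 h, and 287 counts (0.444 RPKM) with C1-14. All 4 treated libraries lay above both DMSO cultures. siGSTO1 was 1.62-fold the DMSO mean, 1.56-fold culture 1 and 1.68-fold culture 2 (pooled count ratio 1.64, interval 1.396 to 1.91). C1-27 stood at 1.10-fold the DMSO mean at 4 h and 1.34-fold at 24 h, and the ratio of 24 h to 4 h was 1.21 (interval 1.04 to 1.42). C1-14 stood at 1.31-fold. siGSTO1 exceeded C1-27 at 24 h 1.21-fold (interval 1.03 to 1.42).

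IRF9 (chromosome 14, 24630422 to 24635774, plus strand) encodes the DNA-binding partner of STAT2. It had 39 counts (0.311 RPKM) and 33.2 counts (0.152 RPKM) in DMSO cultures 1 and 2. The treated cultures gave 45 counts (0.320 RPKM) with siGSTO1, 49.8 counts (0.240 RPKM) with C1-27 at 4 h, 66.0 counts (0.268 RPKM) with C1-27 at 24 h and 33 counts (0.178 RPKM) with C1-14. All treated libraries but siGSTO1 lay between the DMSO cultures, and siGSTO1 lay 1.03-fold above culture 1. No neighbouring pair in the order of levels was set apart by counting error.

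**Figure D2:**
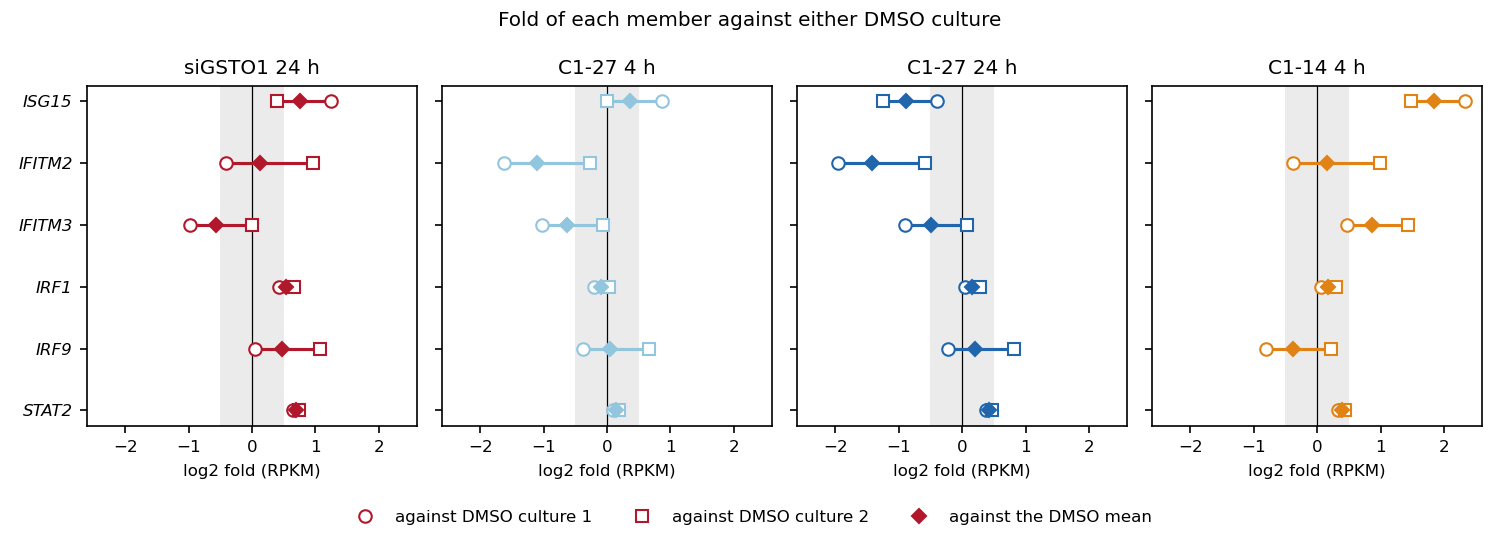
The log2 fold of each gene is drawn for the 4 treatments against DMSO culture 1 (circle), culture 2 (square) and the mean of both (diamond), on RPKM without a pseudocount, and the grey band covers folds under 1.4 in either direction. ISG15 with C1-14, STAT2 with siGSTO1 and IFITM2 with C1-27 at 24 h have all 3 marks outside the band on 1 side, and IFITM1 is left out for lack of counts.

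The filter on size (above 300 bp), mean RPKM (above 0.5) and the threshold of 1.4-fold follow the study, and the mean was taken here over the treated level and the DMSO mean. Here a gene had to pass 1.4-fold against each DMSO culture singly. In the siGSTO1 comparison 3 of the 7 genes passed the filter and 0 were past 1.4-fold, beside a background of 6.49% up and 3.29% down among 8138 genes. STAT2 was past 1.4-fold but below the filter. For C1-27 at 4 h, 2 of the 7 passed the filter and 0 were past 1.4-fold, beside 0.143% up and 0.235% down. For C1-27 at 24 h, 2 passed and 0 were past 1.4-fold, beside 1.89% up and 0.897% down, with IFITM2 past it but below the filter. For C1-14, 4 passed and 1, ISG15, was past 1.4-fold, beside 1.98% up and 0.0899% down. ISG15 passed the filter only through its C1-14 value. These values chose the genes, so nothing is read from the counts. The background depended on scaling, and the share of higher calls moved from 66.3% to 41.5% (TMM) and 35.0% (DESeq2 size factors) for siGSTO1, and from 67.9% to 55.0% and 46.1% for C1-27 at 24 h.

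For the compounds at 4 h, C1-27 was given at 1 µM and C1-14 at 10 µM, so their values stand side by side without a comparison. Against the DMSO mean, ISG15 stood at 1.29-fold with C1-27 and 3.59-fold with C1-14, and IFITM3 at 0.648-fold and 1.83-fold. IFITM2 stood at 0.467-fold and 1.11-fold. Of the transcription factor genes, IRF1 stood at 0.939-fold and 1.13-fold, STAT2 at 1.10-fold and 1.31-fold and IRF9 at 1.04-fold and 0.767-fold.

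The level of short genes as a class also moved between libraries. The 72 other genes of 1000 to 1500 bp with a mean above 0.5 RPKM, the size of ISG15 and the IFITM genes, had a median log2 ratio to the DMSO mean of 0.22 with C1-14, 0.13 in DMSO culture 1 and with siGSTO1, -0.15 in DMSO culture 2, -0.14 with C1-27 at 4 h and -0.16 with C1-27 at 24 h. Genes of 300 to 1000 bp moved further, to 0.68 with C1-14. Of the 72 genes, 12 (16.7%) were past 1.4-fold upwards with C1-14. Genes of 3000 to 10000 bp, the size of IRF1 and IRF9, had medians between -0.16 and 0.14. IFITM2 and IFITM3 were high in DMSO culture 1 and C1-14, where this class was high too, whereas IFITM3 was low with siGSTO1. ISG15 was high with C1-14 but lower in DMSO culture 1 (0.239 RPKM) than in culture 2 (0.434 RPKM), the reverse of the class. The part of gene length in the values of ISG15 and the IFITM genes was not tested. The log2 fold of ISG15 with C1-14 was 1.85 and that of IFITM3 was 0.87. Of the 8 epithelial markers, KRT8, KRT18, KRT19 and EPCAM were also highest in the same library as ISG15 and IFITM3. KRT8 and KRT18 were at 10.5 and 11.9 RPKM with C1-14. They were at 9.60 and 8.18 RPKM in DMSO culture 1 and 5.81 and 4.81 RPKM in culture 2. CDH1 and CDX2 were not highest with C1-14. CDH1 was at 0.3315 RPKM there against 0.451 and 0.351 in DMSO, and CDX2 at 0.286 against 0.383 with C1-27 at 24 h. VIL1 had at most 3 counts and CDX1 had 0.

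**Figure D3:**
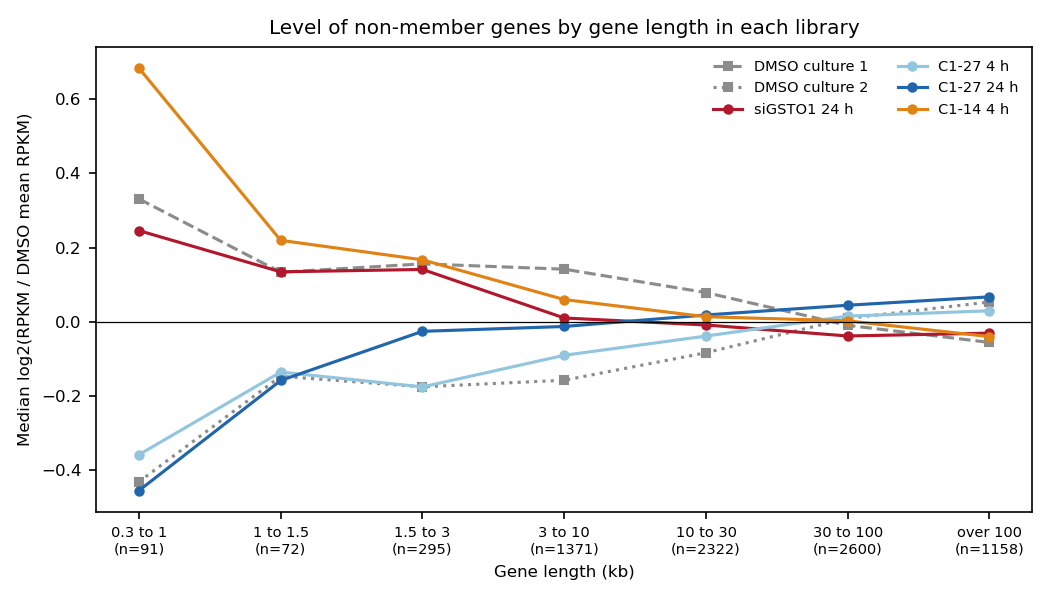
For genes other than the 7 described, the median log2 ratio of RPKM to the DMSO mean is plotted against gene length in kb for each library, with the number of genes under each length class. The libraries spread furthest below 1 kb, with C1-14 on top at 0.68 for the shortest class and C1-27 at 24 h lowest at -0.45.

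Among themselves the genes did not follow 1 pattern. Over the 6 libraries, the Pearson r of log2(RPKM + 0.1) was 0.901 between IRF1 and STAT2 and 0.680 between IFITM2 and IFITM3, and it was 0.460 between ISG15 and IFITM3. ISG15 had r = 0.193 with IRF1 and 0.270 with STAT2. These describe 6 points that share 1 pair of controls and the depth of each library. Among 7909 other genes above 0.5 RPKM, those most alike in pattern to ISG15 were MTRNR2L1 (r = 0.974), FAM98A and PI4K2B. For IFITM2 they were LINC00515 (r = 0.992), CXCL16 and MRPL4, and for IFITM3 they were EIF3I (r = 0.994), KRT18 and ZWINT. IRF1 was followed most closely by RPUSD3 (r = 0.994), CHP and ZBTB33, STAT2 by DBI (r = 0.993), LOC401397 and REST, and IRF9 by SDHC (r = 0.985), ATG4D and CEP164. For IFITM1, EHMT1, METTL1 and FGFR4 came first, but its pattern rests on 5 counts in all.

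The rest of the pathway was examined with 110 genes in 10 lists, of which 83 had enough counts for the test. Interferon genes themselves were silent or nearly so. IFNB1, IFNA1, IFNG, IFNK, IL28A, IL28B and IL29 had 0 counts in every library, which allows up to 3 counts each, IFNA2 had at most 0.923 of a count, and IFNE had between 2 and 10 counts. The receptors and kinases were all transcribed, from 0.242 RPKM for the kinase gene TYK2 in DMSO culture 2 to 1.34 RPKM for the receptor chain gene IFNGR1 with siGSTO1.

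Of the genes that handle the ISG15 protein, TRIM25, an E3 ligase for it, was at 3.67 and 2.33 RPKM in DMSO, 2.66 with siGSTO1, 2.20 and 2.19 with C1-27 at 4 h and 24 h, and 3.92 with C1-14. UBE2L6, its E2 enzyme, was at 0.123 and 0.113 RPKM in DMSO and 0.319 RPKM with siGSTO1 (edgeR quasi-likelihood log2 fold 1.33 ± 0.500 SE, adjusted p = 0.113). HERC5, its main ligase, was at 0.203 and 0.226 RPKM in DMSO and 0.358 RPKM with siGSTO1. USP18, the protease that removes ISG15, was at 0.0437 and 0.0438 RPKM in DMSO and 0.0945 RPKM with siGSTO1. UBA7, its E1 enzyme, had between 1 and 9 counts. None of these passed the adjusted test in any comparison, and with siGSTO1 1 of the 4 tested was higher at an unadjusted p under 0.05 in edgeR, beside 10.0% of all genes.

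With siGSTO1, 3 of the 83 pathway genes rose and 1 fell at an adjusted p under 0.05 (edgeR quasi-likelihood test with Benjamini-Hochberg adjustment over 14431 genes), beside a background of 3.69% up and 1.21% down. The 3 that rose are 3.61% of the list, near that background. DESeq2 called 0 of the 83, and gave PSMB9 and TLR3 no adjusted p. The test assumes that the single treated culture varies like the DMSO cultures, which leave 1 residual degree of freedom. HERC6, a relative of HERC5, had 133 and 281 counts in DMSO and 439 counts with siGSTO1 (log2 fold 1.28 ± 0.386 SE, edgeR adjusted p = 0.0251). TLR3, a sensor of double-stranded RNA, had 10 and 24 counts in DMSO and 58 with siGSTO1 (log2 fold 1.94 ± 0.614 SE, edgeR adjusted p = 0.0367). PSMB9, a subunit of the immunoproteasome, had 4 and 2 counts in DMSO and 18 with siGSTO1 (log2 fold 2.70 ± 0.773 SE, edgeR adjusted p = 0.0152). IFNGR2, a chain of the gamma interferon receptor, fell from 666 and 1329 counts in DMSO to 456 counts, by 0.93 on the log2 scale (SE 0.307, edgeR adjusted p = 0.0488), and its RPKM of 0.502 lay below 0.822 and 0.941 in DMSO. Each of these calls was lost under at least 1 alternative, HERC6 only in DESeq2 (adjusted p = 0.175), and PSMB9 without the count filter (edgeR adjusted p = 0.111).

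With siGSTO1, 59 of the 83 pathway genes had a positive fold, beside 7501 of all 14431 genes tested. The median log2 fold of the 83 was 0.34, against 0.02 for all genes tested. By list, it was 0.84 for the 10 tested genes of RNA and DNA sensing, 0.80 for the 4 of ISG15 conjugation and removal, 0.48 for the 6 other STATs and IRFs and 0.43 for the 16 of antigen presentation. It was 0.30 for the 17 antiviral effectors, 0.30 for the 16 other interferon-stimulated genes, 0.11 for the 9 receptors and kinases and -0.28 for the 4 negative regulators. IFNE, the 1 ligand gene tested, was at 0.57, and no other IFITM gene had enough counts. At an unadjusted p under 0.05, 14 of the 83 (16.9%) were higher, beside 10.0% of all genes. Among the 31 listed genes passing the 0.5 RPKM filter, the median log2 ratio of RPKM to the DMSO mean was 0.11. For all genes passing it, the median was -0.0007. In these 31 it was -0.16 for 3 genes of RNA and DNA sensing, -0.17 for 1 of ISG15 conjugation and -0.07 for 4 antiviral effectors. For 3 negative regulators it was -0.35. It was 0.45 for 3 other STATs and IRFs, 0.40 for 4 of antigen presentation, 0.22 for 7 receptors and kinases and 0.12 for 6 other interferon-stimulated genes. The lists describe these libraries and were chosen with earlier results known.

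With C1-27 at 4 h edgeR called 0 of the 83 genes in either direction, beside 0.0208% of all genes, and the list median was -0.10. Of the 83, 0 were higher and 2 (2.41%) lower at an unadjusted p under 0.05, beside 0.360% and 0.437% of all genes, and DESeq2 called 0. With C1-27 at 24 h edgeR called 0, beside 0.360% of all genes, with a median of 0.02, and 1 gene (1.20%) was higher and 0 lower at an unadjusted p under 0.05, beside 2.34% and 1.93% of all genes. With C1-14 edgeR called 0, beside 0.139% of all genes, with a median of 0.05, and 2 (2.41%) were higher and 0 lower at an unadjusted p under 0.05, beside 1.30% and 0.312% of all genes. DESeq2 called 0 of the 83 genes in both of these comparisons.

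**Figure D4:**
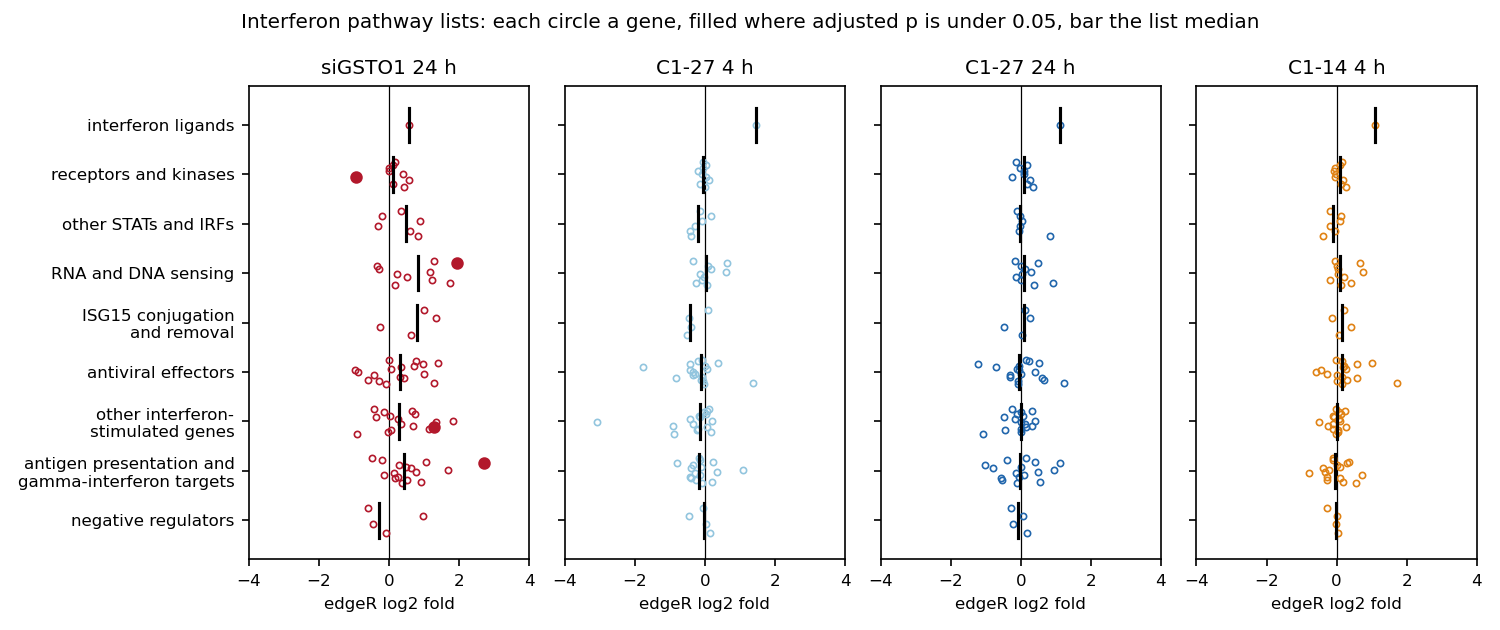
Circles give the edgeR log2 fold of each tested pathway gene against DMSO, by list and treatment, filled where the adjusted p is under 0.05, with a bar at the list median. With siGSTO1 the medians of 8 of 9 lists lie above 0, led by RNA and DNA sensing at 0.84, and the filled circles are TLR3, HERC6, PSMB9 and IFNGR2.

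By the 1.4-fold rule, 31 of the 110 listed genes passed the filter with siGSTO1, and 4 were past 1.4-fold upwards and 1 downwards, beside 6.49% and 3.29% of all genes passing it. Of those upwards, 3 are described. IFNAR1, a chain of the receptor for alpha and beta interferons, was at 0.965 RPKM against 0.644 and 0.677 in DMSO, and IFNGR1 was at 1.34 RPKM against 0.768 and 0.907. HLA-E, which presents peptides to natural killer cells, was at 0.928 RPKM against 0.570 and 0.450. In edgeR's test the adjusted p of these 3 was between 0.382 and 0.522. IFNGR2 was the 1 past 1.4-fold downwards. With C1-27, 0 of the 29 genes passing the filter at 4 h and 0 of the 31 passing at 24 h were past 1.4-fold, beside 0.143% up and 0.235% down at 4 h and 1.89% up and 0.897% down at 24 h. With C1-14, 1 of 30 was, B2M, the light chain of class I molecules, at 5.20 RPKM against 3.50 and 3.65 in DMSO, beside 1.98% of all genes up and 0.0899% down. B2M was named after its values were seen.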

How the data were processed

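Bru-seq libraries were analysed from 6 HCT116 cultures, 2 with DMSO and 1 for each of 4 treatments. The submitters' processing notes name CASAVA 1.8.2, Bowtie 0.12.8, TopHat 1.4.1, bedtools 2.16.2 and build hg19, and the annotation is not given in the sources used here. For each strand of each gene, introns included, the authors deposited estimated counts (many not whole), a signal of counts per base and RPKM. Sense rows were used, and rows of ambiguous strand were left out.

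The genes and lists were chosen with earlier results of these data known. RPKM was compared as deposited, with no pseudocount, and fold changes required 1.4-fold against each DMSO culture among genes above 300 bp with a mean above 0.5 RPKM. Count ratios carry exact 95% Clopper-Pearson intervals. Whether the DMSO cultures were grown separately is not stated beyond their labels. The p-values rest on the spread between these 2 DMSO samples, and the single treated samples add none. Counts were rounded and tested with edgeR 4.0.16 (newer quasi-likelihood method, TMM, at least 10 counts in 2 samples, R 4.3.3) on all genes. The SE given for a log2 fold was derived from the test, as its absolute value divided by the square root of the F statistic. DESeq2 1.42.0, other scalings, filters and controls were alternatives, and scripts were tested on simulated data. Besides the 7 genes, those named were GSTO1, listed genes past either threshold (1.4-fold with siGSTO1 or C1-27 at 24 h only), listed ligands, receptors, kinases and ISG15 enzymes by level, the nearest neighbours, and the 3 genes most alike in pattern. Some items of these lists are not reported here.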

Additional observations from a re-analysis of the deposited data

Results flagged for a closer look

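On the strand opposite to IFITM1, which the comparisons of sense counts leave out, 5 counts were found with C1-14 against 0 counts in both DMSO cultures. The ratio to the pooled DMSO counts, scaled by depth, has a lower 95% bound of 1.70, for counting error only. This was 1 of 28 such comparisons of antisense counts (7 genes in 4 treatments), and no replicate of C1-14 was available.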

How the results depend on the processing

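No paired analysis was possible because only DMSO had 2 cultures. Leaving out 1 DMSO culture from the edgeR fit leaves no residual degrees of freedom and was not run. Depth limits IFITM1 most, at 3 counts or fewer per library, followed by ISG15 and IFITM2, with 113 and 132 counts over all libraries. Rescaling by TMM or DESeq2 size factors moved the median log2 fold of all genes with siGSTO1 from -0.02 to -0.14 and -0.17, the share of genes past 1.4-fold that were higher there from 66.3% to 41.5% and 35.0%, so that most were lower, and the STAT2 fold there from 1.62 to 1.496 and 1.46 (1.48 with a pseudocount of 0.1 RPKM). Relative to DMSO culture 2 alone, 4 of 24 folds (6 genes in 4 treatments, without IFITM1) lay on the other side of 1 (ISG15 and IRF1 with C1-27 at 4 h, IFITM3 with C1-27 at 24 h, IRF9 with C1-14), and relative to culture 1 alone another 4 did (IFITM2 with siGSTO1 and C1-14, IRF9 with C1-27 at both times).

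The genes passing the filter for siGSTO1, C1-27 at 4 h, C1-27 at 24 h and C1-14 were 8138, 7667, 7918 and 7784. Of these, the numbers past 1.4-fold were 796, 29, 221 and 161. Against the averaged DMSO level they were 1379, 205, 532 and 368, and 4761, 1980, 2504 and 1918 without the RPKM filter. With a mean above 1 RPKM they were 401, 13 and 111 for the first 3. Leaving out 1 DMSO culture gave 1468 to 2097, 80 to 1025, 740 to 1153 and 621 to 847. Of the 7 genes described, 0, 0, 0 and 1 were past it. Against the DMSO mean they were 2 (IFITM3, IRF1), 1 (IFITM3), 1 (IFITM3) and 2 (ISG15, IFITM3), and leaving out 1 DMSO culture gave 1 to 2, 0 to 1, 0 to 1 and 1 to 3. Without the RPKM filter siGSTO1 had 1 (STAT2) and C1-27 at 24 h had 1 (IFITM2). With C1-14 the number was 0 above 1 RPKM and 2 under both rescalings. Of the 31, 29, 31 and 30 pathway genes passing the filter, 5, 0, 0 and 1 were past it. Against the DMSO mean C1-27 had 1 at 4 h and 1 at 24 h. Without the RPKM filter the numbers were 44, 9, 15 and 15 of the 110 listed. Beside these stand 4761, 1980, 2504 and 1918 of the genes above 300 bp among the 22984 with a sense value. The total number above 300 bp is not given, so no share is set beside the listed genes. The 44 include genes with few counts. OAS1 had 5 counts with siGSTO1 and 1 in each DMSO culture, and CXCL11 had 2 with siGSTO1 and 0 in each DMSO culture. Above 1 RPKM siGSTO1 had 1, and under DESeq2 rescaling C1-14 had 0. Leaving out 1 DMSO culture gave 7 to 9, 1 to 2, 1 to 2 and 1 to 3.

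In edgeR, 3 pathway genes were called higher with siGSTO1. The number was 0 in DESeq2, 1 with at least 50 counts and 1 with the earlier edgeR quasi-likelihood method, an alternative chosen after seeing the data. The 1 called lower (IFNGR2) became 0 in DESeq2, without the count filter, with at least 50 counts, in a fit of the treated and DMSO cultures only, and with the earlier method. The cause of these changes was not tested.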

Other observations

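RNF31, a subunit of the linear ubiquitin ligase, ends 551 bases before IRF9 on the same strand. It was at 0.926 and 0.635 RPKM in DMSO cultures 1 and 2, 0.980 with siGSTO1, 0.749 and 0.905 with C1-27 at 4 h and 24 h and 0.780 with C1-14. Both genes were highest with siGSTO1 and lowest in DMSO culture 2, and C1-14 and C1-27 at 4 h changed places between them. Bru-seq reads can run past the end of a gene, and a part of RNF31 reads in the IRF9 values was not tested.

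Antisense counts were largest at IRF1, from 94 to 174 per library, beside C5orf56, which ends 5564 bases away on the opposite strand. At IFITM3 they ranged from 3, with C1-14, to 17. Whether the library preparation keeps strand without error was not tested.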
